A study of Caenorhabditis elegans with 30 samples.

Results

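The muscle myosins and the other structural proteins of the thick filament are encoded in Caenorhabditis elegans by a small set of genes, and 8 of them were followed here through an RNAseq experiment on nematodes exposed to thymidine analogues. They were chosen by name from what is known of the filament, with earlier results of these data known: the myosin heavy chain genes unc-54, myo-3, myo-1 and myo-2, the paramyosin gene unc-15, and the myosin light chain genes mlc-1, mlc-2 and mlc-3. These are 8 of the 46726 genes in the count files, and all 8 had enough counts to be among the 16048 genes tested. Nematodes began exposure as L4 larvae, to AZT, d4T or FLT (each at 100μM), to the solvent control (0.033% DMSO) or to no addition (unexposed). Total RNA was sequenced after 72h and after 24h. All groups were fed the same bacterium, OP50, and the strain of the sequenced nematodes is not given in their labels. Eggs were removed on a mesh, so that each library held intact animals with their muscle, gonad, gut and other tissues. Each of the 10 groups held 3 libraries from biological triplicates.

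In nematode muscle, myosin heavy chains dimerise through their long tails and pack around a core of paramyosin to form bipolar thick filaments, which slide along actin thin filaments. UNC-54 is the major heavy chain of the body wall muscle (myosin heavy chain B), MYO-3 (heavy chain A) lies at the centre of the same filaments, and MYO-1 and MYO-2 are the heavy chains of the pharynx, the pump with which the animal feeds. MLC-1 and MLC-2 are near-identical regulatory light chains, and MLC-3 is the essential (alkali) light chain.

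On the WBcel235 build, to which the authors aligned the reads, unc-54 (WBGene00006789) lies on chromosome I from 14855901 to 14863482, unc-15 (WBGene00006754) on chromosome I from 7376604 to 7383197 and myo-1 (WBGene00002348) on chromosome I from 7258946 to 7267057, all on the minus strand. The myo-3 gene (WBGene00003515) lies on the minus strand of chromosome V from 12226817 to 12234343, myo-2 (WBGene00003514) on the plus strand of chromosome X from 12468061 to 12475348, and mlc-3 (WBGene00003371) on the plus strand of chromosome III from 5565025 to 5567382. The genes mlc-1 (WBGene00003369, plus strand, 17459210 to 17460778) and mlc-2 (WBGene00003370, minus strand, 17455792 to 17456586) are neighbours on chromosome X that point away from each other, with 2623 bp between them. Values are counts over annotated exons. Reads that match mlc-1 and mlc-2 equally well could not be given to either, so the level of each, and which of them is higher, is uncertain. Their sum, which lacks those reads too, is given where it changes a call. Of mlc-2, 77 exonic bases lie under C36E6.2 on the other strand, and whether the counting used strand is not given in the sources used here.

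Counts on genes were 11.3M to 30.6M per library (median 23.98M, where M stands for mega), and the 8 genes together took 0.0448 to 0.156% of them. The lowest count of any of the 8 genes in a library was 52 (myo-1) and the highest was 7373 (mlc-3). By the names of the files, each exposure was sequenced in 1 lane of its own, shared by its 2 times, and FLT on another flow cell, so that within 1 time a difference of exposure cannot be told apart from one of lane. One library stood apart from its label: replicate 2 of d4T at 24h correlated at 0.914 and 0.933 with the other 2 libraries of its group, and at 0.987 to 0.988 with the 3 libraries of AZT at 24h, over log2 CPM of all genes tested. Calls on d4T at 24h that changed without it are given with the value they then took. Without it the comparison with DMSO called more of all genes, 14.7% higher and 22.2% lower. Replicate 3 of FLT at 24h and replicate 1 of the unexposed group at 24h were also nearer to a library of another group than to their own, by smaller margins. Ribosomal RNA took 5.78% of the counts in replicate 1 of AZT at 72h and 4.99% in replicate 1 of d4T at 24h, against 0.259 to 2.37% in the other libraries.

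Levels are given as CPM, the count of a gene relative to the depth of its library, with trimmed mean of M-values (TMM) scaling, and per kb of exon where genes are compared with each other. Per kb, the light chain gene mlc-2 was the highest of the 8 genes in 30 of 30 libraries, at a median of 296 CPM per kb (99.3 to 483). The essential light chain gene mlc-3 had a median of 133 CPM per kb (52.6 to 283) and mlc-1 one of 96.6 CPM per kb (45.8 to 150.1). Paramyosin, unc-15, stood at 41.1 CPM per kb (15.3 to 83.6), above unc-54 in 30 of 30 libraries. Among the heavy chain genes, unc-54 was the highest per kb in 30 of 30 libraries, with a median of 27.9 CPM per kb (6.05 to 56.3), and myo-3 lay above both pharyngeal genes in 30 of 30 libraries, with 5.33 CPM per kb (2.15 to 20.1). The pharyngeal genes myo-2 and myo-1 had medians of 1.40 CPM per kb (0.439 to 6.16) and 1.24 CPM per kb (0.330 to 4.52), and 1 of these was the lowest of the 8 genes in every library.

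Across the 10 groups the mean CPM of a gene varied 2.60-fold (mlc-1) to 7.75-fold (myo-2). The highest group was d4T at 24h for unc-54, myo-3, unc-15, mlc-1 and mlc-3, AZT at 72h for myo-1 and myo-2, and the unexposed nematodes at 24h for mlc-2. The lowest was DMSO at 72h for unc-54, unc-15 and myo-2, DMSO at 24h for myo-1, the unexposed nematodes at 24h for myo-3, and the unexposed nematodes at 72h for the 3 light chain genes. Most neighbours in these orders did not differ beyond their spread: of the 9 pairs of adjacent groups, 5 (mlc-2) to 8 (myo-2) overlapped in CPM. For unc-54 the order by mean ran d4T 24h, AZT 24h, DMSO 24h, unexposed 24h, AZT 72h, FLT 72h, FLT 24h, unexposed 72h, d4T 72h and DMSO 72h, and in this order only the unexposed, d4T and DMSO groups at 72h were apart from each other.

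**Figure D1:**
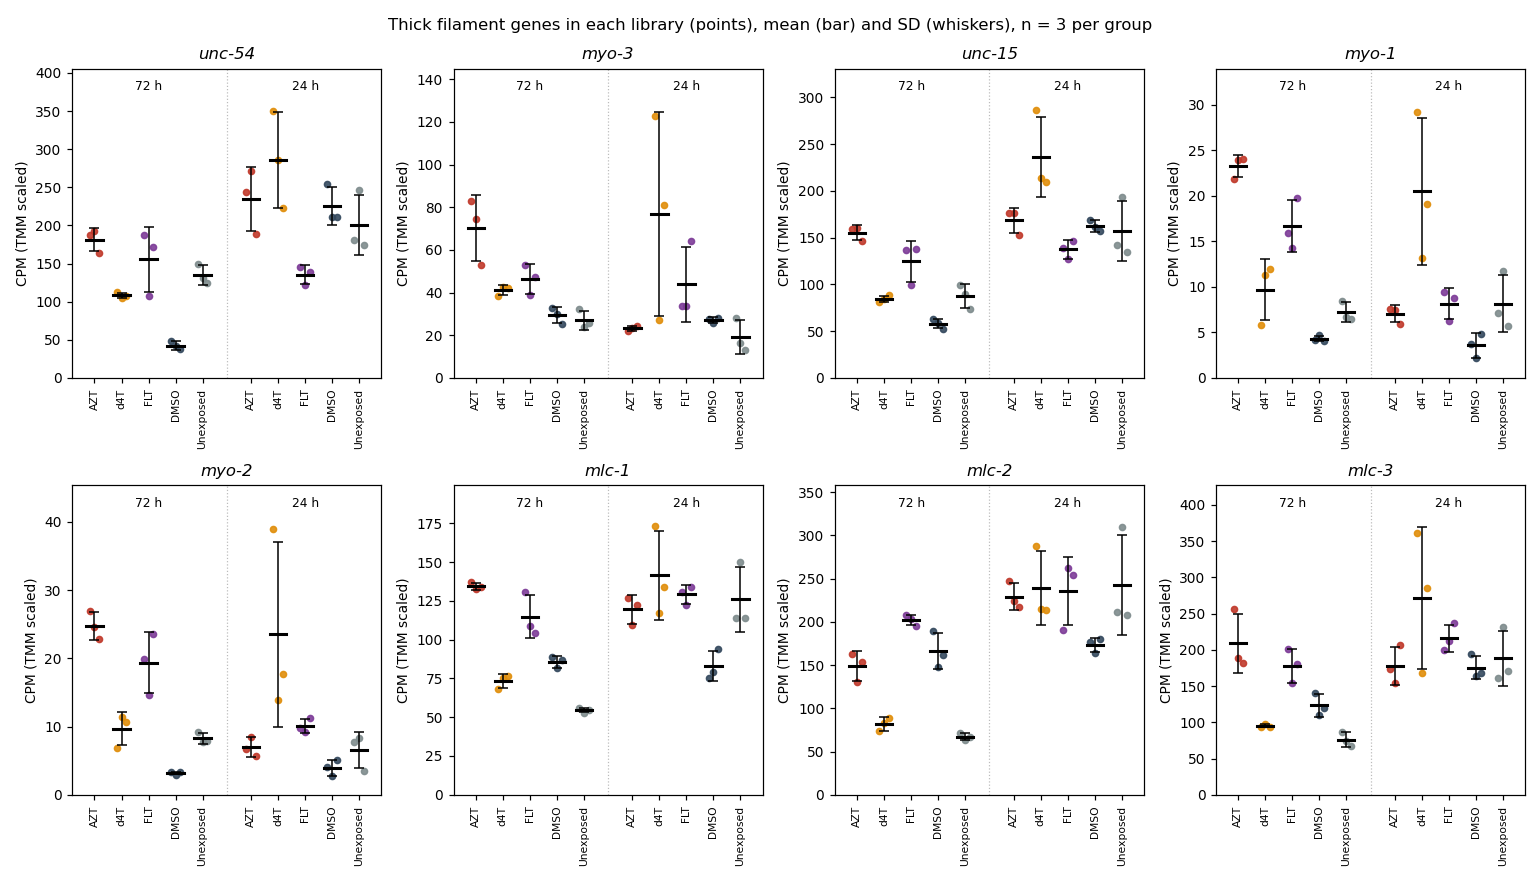
Level of each of the 8 genes in every library, in CPM on a linear axis, by exposure (AZT, d4T, FLT, DMSO, unexposed from left to right) and time (72h, then 24h), with 1 point per library, a bar at the group mean and whiskers of 1 SD (n = 3). The DMSO libraries at 72h are the lowest of all for unc-54 (37.5 to 48.1 CPM), and replicate 2 of d4T at 24h lies away from the other d4T libraries for myo-3, at 27.1 CPM.

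To ask whether these genes differed with the analogues, each analogue was compared with DMSO at the same time, and a gene was called at an adjusted p under 0.01 in edgeR's quasi-likelihood test with Benjamini-Hochberg adjustment over all 16048 genes. At 72h the genes mostly stood above DMSO. With AZT 7 of the 8 rose, all but mlc-2, where 27.2% of all genes tested rose and 21.6% fell. With FLT 4 of 8 rose (unc-54, unc-15, myo-1 and myo-2), where 4.52% of all genes rose and 3.54% fell. With d4T 3 of 8 rose (unc-54, myo-1 and myo-2) and mlc-2 fell, where 5.82% of all genes rose and 5.86% fell. The median log2 fold change of the 8 genes at 72h was 1.34 with AZT, 0.51 with d4T and 0.88 with FLT, beside 0.36, 0.17 and 0.01 over all genes tested. At 24h the calls were fewer with AZT and as many with d4T and FLT, and they centred on the pharyngeal genes and mlc-1. With AZT 1 of 8 rose, mlc-1, where 1.07% of all genes rose and 9.15% fell. With d4T 4 rose (myo-3, myo-1, myo-2 and mlc-1), where 4.07% rose and 2.24% fell. With FLT 3 rose (myo-1, myo-2 and mlc-1) and unc-54 fell, where 5.74% rose and 9.39% fell. The medians at 24h were 0.23, 0.70 and 0.54, beside -0.02, 0.02 and 0.15 over all genes. The 3 comparisons at each time share the same DMSO libraries, so their counts are not independent of each other. Where libraries are said below not to overlap, the share of all genes apart in this way was not counted. RNA came from whole animals, so that a change within muscle and a change in the share of RNA from other tissues cannot be told apart.

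**Figure D2:**
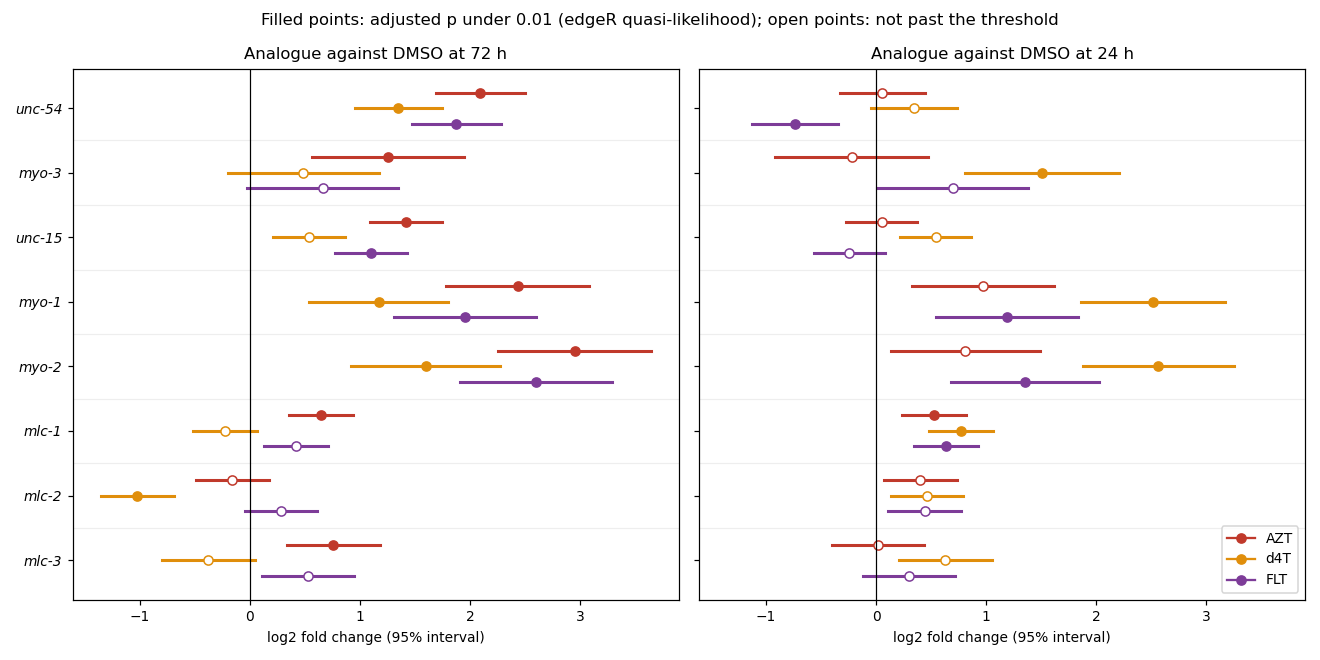
Log2 fold change of each of the 8 genes over DMSO, with 95% intervals, for AZT, d4T and FLT at 72h and at 24h. Filled points passed an adjusted p under 0.01: unc-54 lay above DMSO with all 3 analogues at 72h (2.09, 1.35 and 1.87) and below it with FLT at 24h (-0.74).

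The main body wall heavy chain gene, unc-54, stood above DMSO with all 3 analogues at 72h. It was lowest of all groups in the DMSO nematodes of that time. At 72h it had 188, 192 and 164 CPM with AZT, 112.2, 105 and 107 CPM with d4T and 187, 107 and 172 CPM with FLT, against 48.1, 41.7 and 37.5 CPM with DMSO and 149, 130.4 and 125 CPM in unexposed nematodes. Every analogue library thus lay above every DMSO library, all DMSO libraries lay below all unexposed libraries, and the d4T libraries lay between these controls. The log2 fold change over DMSO was 2.09 ± 0.20 (SE) with AZT (adjusted p = 2.48e-08), 1.35 ± 0.19 with d4T (adjusted p = 1.98e-05) and 1.87 ± 0.20 with FLT (adjusted p = 3.78e-07). These levels are 4.27, 2.55 and 3.67 times the DMSO mean. Each of these calls was kept with any 1 library left out. None of them was kept against unexposed nematodes, where the log2 fold change was 0.43 with AZT (adjusted p = 0.0633), -0.32 with d4T (adjusted p = 0.506) and 0.21 with FLT (adjusted p = 0.491). At 24h the gene had 244, 271 and 189 CPM with AZT, 349.6, 285 and 223 CPM with d4T and 146, 121 and 139 CPM with FLT, against 255, 211 and 211 CPM with DMSO and 181, 246.5 and 174 CPM in unexposed nematodes. The 3 FLT libraries lay below all DMSO libraries, whereas AZT and d4T overlapped with DMSO. With FLT unc-54 fell by 0.74 on the log2 scale (SE 0.19, adjusted p = 0.00553), to 135 ± 12.5 CPM against 226 ± 25.2 CPM with DMSO (SD, n = 3 each). That call was lost when FLT replicate 3 or any 1 of the DMSO libraries was left out (-0.83 to -0.73, adjusted p = 0.0106 to 0.0168), and FLT against unexposed nematodes gave -0.57 (adjusted p = 0.0173).

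The second body wall heavy chain gene, myo-3, passed in fewer comparisons than unc-54, with AZT at 72h and d4T at 24h. With AZT at 72h it had 82.9, 74.4 and 52.9 CPM, against 32.9, 29.7 and 25.4 CPM with DMSO, and the groups did not overlap. The change was 1.26 ± 0.34 on the log2 scale (SE, adjusted p = 0.00246), or 2.39 times the DMSO mean. It no longer passed without AZT replicate 1 (1.09), AZT replicate 2 (1.14) or DMSO replicate 3 (1.16), with adjusted p = 0.0146, 0.0110 and 0.0149. It passed against unexposed nematodes, at 1.37 (adjusted p = 0.00218). With d4T (38.6, 42.7 and 42.1 CPM) and FLT (53.0, 39.0 and 47.2 CPM) all libraries at 72h also lay above DMSO, but the differences of 0.49 and 0.66 did not pass the test (adjusted p = 0.282 and 0.188). At 24h myo-3 had 123, 27.1 and 81.1 CPM with d4T, against 27.4, 25.7 and 28.1 CPM with DMSO. Replicate 2, the library that stood apart from its label, lay within the DMSO range and the other 2 libraries far above it. The log2 fold change of 1.51 ± 0.34 (SE, adjusted p = 0.00351) became 1.89 without that replicate. It passed in no other fit with 1 library left out (0.97 to 1.52, lowest without d4T replicate 1, adjusted p = 0.0780). AZT at 24h (21.9, 23.2 and 24.4 CPM, difference -0.22) lay just below the DMSO libraries and FLT (33.6, 33.8 and 64.1 CPM, difference 0.69) above them, and neither passed (adjusted p = 0.629 and 0.124). Without FLT replicate 3, which was nearer to another group, the FLT difference was 0.24.

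Paramyosin, unc-15, followed unc-54 over the 30 libraries (Pearson r of log2 CPM 0.93, a description over libraries that share groups and lanes). At 72h it had 159.7, 160.3 and 146 CPM with AZT, 81.1, 83.9 and 88.3 CPM with d4T and 136.5, 99.5 and 138 CPM with FLT, against 62.6, 59.1 and 52.5 CPM with DMSO. All analogue libraries lay above all DMSO libraries. The rise was 1.42 ± 0.16 on the log2 scale with AZT (SE, adjusted p = 2.43e-07) and 1.10 ± 0.16 with FLT (adjusted p = 2.76e-05), or 2.68 and 2.15 times DMSO, and both were kept with any 1 library left out. The difference with d4T, 0.54 ± 0.16, did not pass (adjusted p = 0.0146). Against unexposed nematodes (99.5, 90.2 and 73.3 CPM) the AZT difference was 0.83 (adjusted p = 0.000273) and the FLT difference 0.51 (adjusted p = 0.0209), of which the first passed. For this gene at 24h no difference from DMSO passed. The libraries held 177, 176 and 153 CPM with AZT, 286, 214 and 209.5 CPM with d4T and 139, 127 and 147 CPM with FLT, against 169, 161 and 157 CPM with DMSO. The d4T libraries lay above DMSO and FLT below it without overlap, and AZT overlapped. The d4T difference of 0.54 (adjusted p = 0.0224) passed only without d4T replicate 2, at 0.58 (adjusted p = 0.00351).

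The pharyngeal heavy chain genes myo-1 and myo-2 were the most often called of the 8, each in 5 of the 6 comparisons with DMSO and each time upwards. At 72h myo-1 had 21.9, 23.9 and 24.0 CPM with AZT, 5.86, 11.2 and 11.9 CPM with d4T and 15.9, 14.3 and 19.8 CPM with FLT, against 4.16, 4.65 and 4.09 CPM with DMSO. For myo-2 the values were 26.9, 24.7 and 22.8 CPM with AZT, 6.89, 11.4 and 10.7 CPM with d4T and 19.9, 14.6 and 23.6 CPM with FLT, against 3.37, 2.96 and 3.27 CPM with DMSO. No analogue library of either gene overlapped with DMSO. The log2 fold changes of myo-1 were 2.43 ± 0.31 with AZT (SE, adjusted p = 1.27e-06), 1.17 ± 0.31 with d4T (adjusted p = 0.00753) and 1.95 ± 0.31 with FLT (adjusted p = 0.000101). Those of myo-2 were 2.95 ± 0.34 with AZT (adjusted p = 3.06e-07), 1.60 ± 0.33 with d4T (adjusted p = 0.00106) and 2.60 ± 0.34 with FLT (adjusted p = 7.04e-06). AZT nematodes held 7.75 times the myo-2 of DMSO nematodes. Against unexposed nematodes the AZT and FLT calls at 72h remained for both genes (myo-1 1.69 and 1.21, myo-2 1.58 and 1.23), and the d4T calls did not (myo-1 0.43, myo-2 0.23). With 1 library left out, the AZT calls of both genes passed in 6 of 6 fits against unexposed nematodes. The FLT call of each gene passed in 1 of 6 (myo-1 1.06 to 1.33, myo-2 1.05 to 1.39). The call of myo-1 with d4T passed in 1 of 6 fits with 1 library left out (0.94 to 1.43, lowest without d4T replicate 3), and it was also lost with relative log expression scaling and with a replicate block.

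At 24h the same pair was highest with d4T. The myo-1 gene had 7.62, 7.50 and 5.97 CPM with AZT, 29.2, 13.2 and 19.04 CPM with d4T and 9.45, 6.21 and 8.81 CPM with FLT, against 3.73, 2.13 and 4.87 CPM with DMSO and 7.13, 11.7 and 5.68 CPM in unexposed nematodes. The myo-2 gene had 6.71, 8.52 and 5.75 CPM with AZT, 39.0, 13.9 and 17.7 CPM with d4T and 9.85, 9.26 and 11.3 CPM with FLT, against 4.005, 2.78 and 5.12 CPM with DMSO and 7.77, 8.30 and 3.49 CPM in unexposed nematodes. All analogue libraries lay above all DMSO libraries for both genes, with replicate 1 highest and replicate 2 lowest among the d4T libraries. With d4T myo-1 rose by 2.52 ± 0.32 on the log2 scale (SE, adjusted p = 1.74e-05) and myo-2 by 2.57 ± 0.33 (adjusted p = 2.27e-05), and both passed in each fit with 1 library left out (1.95 to 2.81). Without d4T replicate 2 the rises were 2.73 and 2.81. In a fit of the d4T and DMSO libraries at 24h alone, 0 of all 14019 genes were called. Over the 6 alternative fits the log2 fold changes were 2.49 to 2.65 (myo-1) and 2.53 to 2.71 (myo-2). Against unexposed nematodes these were 1.33 (adjusted p = 0.00121) and 1.85 (adjusted p = 0.000158). With FLT the rises were 1.19 ± 0.31 for myo-1 (adjusted p = 0.00657) and 1.35 ± 0.33 for myo-2 (adjusted p = 0.00346). They passed in 1 and 2 of 6 fits with 1 library left out (myo-1 0.92 to 1.49 and myo-2 1.15 to 1.59, both lowest without DMSO replicate 2). Neither passed against unexposed nematodes (-0.0036 for myo-1 and 0.63 for myo-2). With AZT the differences of 0.97 (myo-1, adjusted p = 0.0262) and 0.81 (myo-2, adjusted p = 0.0651) did not pass. For myo-1 only the fit without DMSO replicate 3 gave a call (1.30, adjusted p = 0.00940).

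The light chain genes divided at 72h. The regulatory light chain gene mlc-1 had 137, 132.5 and 134 CPM with AZT, 68.2, 75.3 and 76.8 CPM with d4T and 131, 109 and 104.5 CPM with FLT, against 88.8, 81.5 and 86.7 CPM with DMSO. AZT and FLT libraries lay above DMSO and d4T libraries below it. The AZT rise of 0.65 ± 0.14 (SE, adjusted p = 0.000391) passed, whereas the FLT difference of 0.42 (adjusted p = 0.0411) and the d4T difference of -0.22 (adjusted p = 0.246) did not. Its near-identical neighbour mlc-2 had 163, 130.1 and 154 CPM with AZT, 73.7, 82.9 and 88.8 CPM with d4T and 208, 203 and 196 CPM with FLT, against 189.5, 148 and 161 CPM with DMSO and 71.8, 63.6 and 66.7 CPM in unexposed nematodes. With d4T all libraries lay below DMSO, and mlc-2 fell by 1.02 on the log2 scale (SE 0.16, adjusted p = 7.05e-05), to 81.8 ± 7.61 CPM against 166 ± 21.1 CPM with DMSO (SD, n = 3 each). This was the only fall among the 8 genes at 72h, and it was kept with any 1 library left out. Against unexposed nematodes the direction turned, to 0.28 (adjusted p = 0.489). AZT overlapped with DMSO (-0.16, adjusted p = 0.397) but stood above unexposed nematodes by 1.15 (adjusted p = 1.11e-05), and FLT differed from DMSO by 0.28 (adjusted p = 0.249). With the counts of mlc-1 and mlc-2 summed, the d4T fall passed (-0.70, adjusted p = 0.00128) and the AZT difference did not (0.17, adjusted p = 0.311).

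The essential light chain gene mlc-3 had 256, 189 and 182 CPM with AZT at 72h, 93.7, 97.99 and 94.0 CPM with d4T and 201, 154 and 179.8 CPM with FLT, against 141, 109 and 120.3 CPM with DMSO. AZT and FLT again lay above and d4T below the DMSO libraries. The AZT rise of 0.76 ± 0.20 (SE, adjusted p = 0.00266) passed, but not without AZT replicate 1 (0.56, adjusted p = 0.0319), DMSO replicate 2 (0.68, adjusted p = 0.0180) or DMSO replicate 3 (0.74, adjusted p = 0.0118). The FLT difference of 0.53 (adjusted p = 0.078) and the d4T difference of -0.38 (adjusted p = 0.171) did not pass.

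At 24h mlc-1 was the 1 gene of the 8 that rose over DMSO with all 3 analogues. It had 127, 109 and 122.5 CPM with AZT, 173, 117 and 134 CPM with d4T and 131, 123 and 134 CPM with FLT, against 75.6, 79.1 and 94.2 CPM with DMSO and 114, 150 and 114 CPM in unexposed nematodes. Every analogue library and every unexposed library lay above every DMSO library. The rise was 0.53 ± 0.14 with AZT (SE, adjusted p = 0.00963), 0.77 ± 0.14 with d4T (adjusted p = 0.000687) and 0.64 ± 0.14 with FLT (adjusted p = 0.00177). It was -0.07, 0.17 and 0.04 against unexposed nematodes, where none passed. With AZT it passed in 1 of 6 fits with 1 library left out (0.48 to 0.66), with d4T in 4 (0.56 to 0.86) and with FLT in 2 (0.49 to 0.74). These were lowest without DMSO replicate 1 for AZT and FLT and without d4T replicate 1 for d4T. For the sum of mlc-1 and mlc-2 only the d4T rise passed (0.57, adjusted p = 0.00952), and AZT (0.44, adjusted p = 0.0275) and FLT (0.51, adjusted p = 0.0112) did not. The mlc-2 gene had 217 to 247 CPM with AZT, 214 to 288 CPM with d4T and 190.3 to 262 CPM with FLT, all above the 164 to 179.8 CPM with DMSO. The differences of 0.40, 0.46 and 0.44 did not pass (adjusted p = 0.0616, 0.0579 and 0.0418). For mlc-3 the ranges were 154 to 206 CPM with AZT, 168 to 361 CPM with d4T and 199.5 to 236.5 CPM with FLT, against 164 to 194 CPM with DMSO. No difference passed (0.02, 0.63 and 0.30). Without d4T replicate 2 the d4T difference of mlc-3 passed, at 0.86 (adjusted p = 0.000262), and that of mlc-2 was 0.51 (adjusted p = 0.0103).

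The solvent itself was compared with unexposed nematodes, since the analogues were dissolved in it. At 72h 5 of the 8 genes differed. With DMSO unc-54, unc-15 and myo-2 fell, where 6.01% of all genes tested fell, and mlc-1 and mlc-2 rose, where 5.71% rose. The fall of unc-54 was the largest, by 1.67 on the log2 scale (SE 0.20, adjusted p = 8.95e-07), to 42.4 ± 5.33 CPM with DMSO against 135 ± 12.6 CPM in unexposed nematodes (SD, n = 3 each). The unc-15 gene fell by 0.59 (adjusted p = 0.0081) and myo-2 by 1.37 (adjusted p = 0.00365), to 3.37, 2.96 and 3.27 CPM with DMSO against 9.24, 7.78 and 7.82 CPM in unexposed nematodes. These 2 calls passed in 1 and 2 of 6 fits with 1 library left out (unc-15 lowest without unexposed replicate 1, at -0.48, and myo-2 also there, at -1.27). The light chain genes stood the other way: mlc-1 had 88.8, 81.5 and 86.7 CPM with DMSO against 55.8, 52.9 and 54.8 CPM in unexposed nematodes (0.65 ± 0.14, SE, adjusted p = 0.00166), and mlc-2 189.5, 148 and 161 CPM against 71.8, 63.6 and 66.7 CPM (1.30 ± 0.16, adjusted p = 2.22e-06). The DMSO and unexposed libraries at 72h did not overlap for 7 of the 8 genes, these 5 among them, so this does not mark out the called genes. At 24h, where 3.56% of all genes fell, myo-1 and mlc-1 fell, by 1.19 (SE 0.31, adjusted p = 0.00727) and by 0.60 (SE 0.14, adjusted p = 0.00338), to 3.58 ± 1.38 CPM against 8.16 ± 3.13 CPM and 83.0 ± 9.88 CPM against 126 ± 20.8 CPM (DMSO against unexposed, SD, n = 3 each). They passed in 2 and 3 of 6 fits with 1 library left out, lowest without unexposed replicate 2 (-0.84 and -0.46), and the sum of mlc-1 and mlc-2 did not pass (-0.52, adjusted p = 0.0104). The summed level of 8 intestinal genes, whose part in these differences was not tested, was 10940 to 14000 CPM with DMSO against 26110 to 34300 CPM in unexposed nematodes at 72h, and 65950 to 91000 CPM with DMSO against 34180 to 42470 CPM in unexposed nematodes at 24h. These sums came mostly from the yolk genes vit-2, vit-5 and vit-6 (3796, 3261 and 4654 CPM with DMSO at 72h, against 9486, 7844 and 12040 CPM unexposed). Some genes of the list went the other way, act-5 (116 against 81.5 CPM) and ifb-2 (29.6 against 23.9 CPM) at 72h, and act-5 at 24h (356 against 365 CPM).

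Against unexposed nematodes the counts of called genes changed with the analogue. AZT at 72h stood above unexposed nematodes at 7 of the 8 genes, all but unc-54, where 18.6% of all genes were higher. FLT at 72h stood above at 5 (myo-1, myo-2 and the 3 light chain genes, where 5.96% of all genes were higher) and d4T at 72h at none, where 0.206% of all genes were called in either direction (edgeR gave 1 of the 8 at an unadjusted p under 0.05). The FLT calls of myo-1 and myo-2 each passed in 1 of 6 fits with 1 library left out, and the AZT call of myo-3 in 3. At 24h no gene of the 8 passed with AZT, where edgeR called 0.704% of all genes and gave 0 of the 8 at an unadjusted p under 0.05. There were 4 higher with d4T (myo-3, unc-15, myo-1 and myo-2), where 19.5% of all genes were higher. With FLT 1 was higher, myo-3 (1.19, adjusted p = 0.0065), where 17.2% of all genes were higher. That call was lost without FLT replicate 3 (0.77, adjusted p = 0.0864), unexposed replicate 2 (1.09) or unexposed replicate 3 (0.98). The gene myo-3 with d4T at 24h had 123, 27.1 and 81.1 CPM, against 28.0, 16.4 and 13.1 CPM in unexposed nematodes, with a difference of 2.00 (adjusted p = 0.000145). With d4T replicate 2 left out it was 2.38, all 4 calls with d4T passed and mlc-3 passed too (0.75, adjusted p = 0.000307), where 29.4% of all genes were then higher. The calls of unc-15 and myo-1 were lost without d4T replicate 1 (0.43 and 0.98) or unexposed replicate 3 (0.49 and 1.11), and that of unc-15 also without unexposed replicate 1 (0.53). These fits with 1 library left out were an addition made with the data in view.

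The 3 analogues were given at the same dose for the same times and differ at 1 part of the sugar, where AZT carries an azido group and FLT a fluorine, while d4T has a double bond in the ring. At 72h AZT against d4T gave the most calls, with 7 of the 8 genes higher with AZT (all but myo-3) where 8.05% of all genes were higher. The differences ran between 0.74 (unc-54, SE 0.19, adjusted p = 0.00668) and 1.36 (myo-2, SE 0.31, adjusted p = 0.00344), and mlc-3 had 256, 189 and 182 CPM with AZT against 93.7, 97.99 and 94.0 CPM with d4T (1.13 ± 0.21, SE, adjusted p = 0.000433). For unc-54 the call passed in 1 of 6 fits with 1 library left out (0.67 to 0.78) and for myo-1 and myo-2 in 2 (1.00 to 1.42 and 1.16 to 1.46, lowest without d4T replicate 1). The unc-54 call passed only without AZT replicate 3, and those of myo-1 and myo-2 were both lost without AZT replicate 1, AZT replicate 2 or d4T replicate 1. Between d4T and FLT the 3 light chain genes were lower with d4T, where 5.43% of all genes were lower: mlc-1 at -0.64 (adjusted p = 0.00173), mlc-2 at -1.30 (adjusted p = 2.58e-06) and mlc-3 at -0.90 (adjusted p = 0.00231). Those of mlc-1 and mlc-3 were lost without d4T replicate 1 or FLT replicate 1 (-0.72 to -0.54 and -1.02 to -0.81 over the libraries left out). AZT and FLT at 72h differed at 0 of the 8 genes, where 40.5% of all genes were called in either direction. By edgeR 1 of the 8, mlc-2, had an unadjusted p under 0.05, and 1 was called by DESeq2. The interval of the difference was -0.17 to 0.61 for unc-54, -0.01 to 0.64 for unc-15, -0.13 to 1.09 for myo-1, -0.28 to 0.99 for myo-2, -0.09 to 1.28 for myo-3 and -0.77 to -0.11 for mlc-2, on the log2 scale.

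At 24h AZT against d4T gave 3 genes that were lower with AZT, where 20% of all genes were lower: myo-3 at -1.73 (SE 0.34, adjusted p = 0.000749), myo-1 at -1.55 (SE 0.31, adjusted p = 0.000774) and myo-2 at -1.75 (SE 0.32, adjusted p = 0.000542). Without d4T replicate 1 the first 2 did not pass (-1.23 and -1.20), and without d4T replicate 2 there were 5 calls (mlc-3 at -0.81 and unc-15 at -0.50 besides). In fits of the compared groups alone, 0 of all genes were called for AZT against d4T and for d4T against FLT at 24h, so the 0 of the 8 there says nothing of these genes. Between d4T and FLT, where 4.38% of all genes were higher with d4T, unc-54 (1.08 ± 0.19, SE, adjusted p = 0.00122), unc-15 (0.78 ± 0.16, adjusted p = 0.00221) and myo-1 (1.33 ± 0.30, adjusted p = 0.00484) were higher with d4T. Leaving out d4T replicate 2, myo-2 (1.45, adjusted p = 0.000767) and myo-3 (1.19, adjusted p = 0.00106) passed too. The shares of all genes in these fits without a d4T library are not given here, so the added calls are not set against a background. The call of unc-54 was kept with any 1 library left out, that of unc-15 was lost without FLT replicate 2, and that of myo-1 was lost without d4T replicate 1 (1.03), FLT replicate 2 or FLT replicate 3. AZT against FLT gave 1 call of 8, where 17.4% of all genes were higher with AZT: unc-54 had 244, 271 and 189 CPM with AZT against 146, 121 and 139 CPM with FLT, without overlap (0.80 ± 0.19, SE, adjusted p = 0.00128).

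The 2 times of an exposure shared a lane, so they could be compared without that difference. In unexposed nematodes 4 of the 8 genes fell between 24h and 72h (8.94% of all genes fell), unc-15 by 0.84 and mlc-1, mlc-2 and mlc-3 by 1.21, 1.85 and 1.30 on the log2 scale (adjusted p = 0.000231, 6.19e-07, 8.95e-09 and 3.23e-05). In d4T nematodes 7 of 8 fell (13.1% of all genes fell), with unc-54 at -1.40, unc-15 at -1.49, mlc-2 at -1.55 and mlc-3 at -1.51, and myo-3 (-0.90, adjusted p = 0.0342) fell too when d4T replicate 2 at 24h was left out. The falls of myo-1 and myo-2 (-1.08 and -1.28) did not pass without d4T replicate 1 at 24h (-0.76 and -0.72) or d4T replicate 1 at 72h, and that of myo-1 also not without d4T replicate 2 at 72h (-1.19, adjusted p = 0.0108). Both were lost with library totals, and that of myo-1 with a replicate block. All 7 were lost in a fit of the d4T libraries alone, in which 3 of all genes were called. In DMSO nematodes 2 of 8 fell (19.2% of all genes fell), unc-54 by 2.41 (SE 0.20, adjusted p = 1.24e-09) and unc-15 by 1.49 (SE 0.16, adjusted p = 7.5e-08). In AZT nematodes 3 of the genes rose and 1 fell (26.5% of all genes rose and 24.1% fell). There myo-3 (1.59 ± 0.34, SE, adjusted p = 0.000413), myo-1 (1.73 ± 0.31, adjusted p = 8.08e-05) and myo-2 (1.83 ± 0.32, adjusted p = 7.48e-05) rose. The mlc-2 gene fell by 0.62 (SE 0.16, adjusted p = 0.00199) and its sum with mlc-1 did not pass (-0.30). With AZT the myo-1 gene had 21.9, 23.9 and 24.0 CPM at 72h, against 7.62, 7.50 and 5.97 CPM at 24h. FLT nematodes had 1 call (16.2% of all genes rose), myo-1, which rose by 1.03 ± 0.30 (SE, adjusted p = 0.00666) and was lost without FLT replicate 2 at 24h or FLT replicate 1 or 3 at 72h (lowest 0.90).

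**Figure D3:**
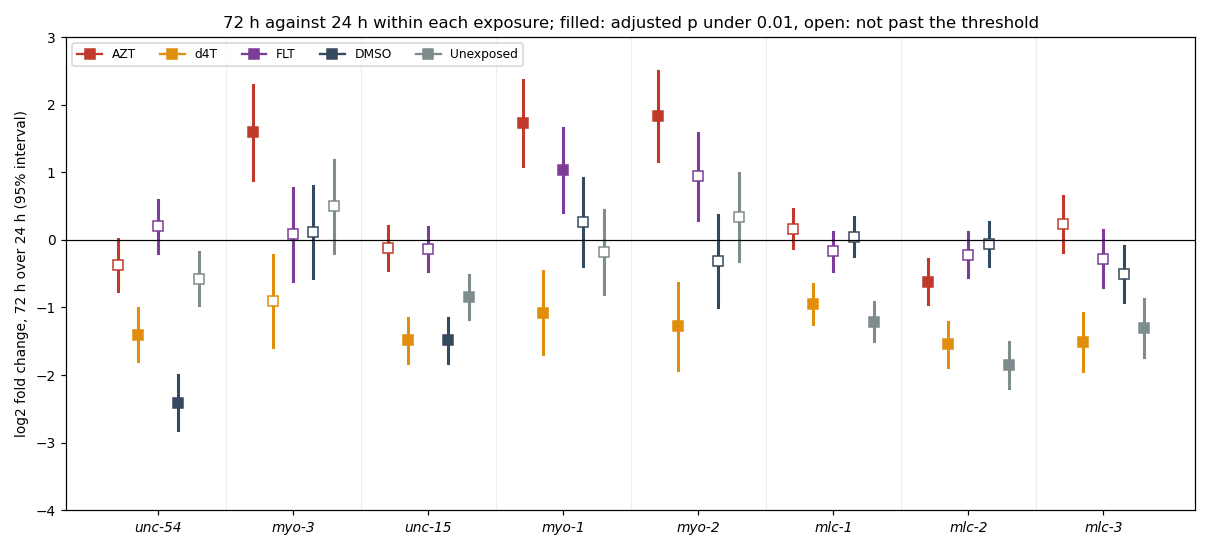
Log2 fold change of each of the 8 genes at 72h over 24h, within AZT, d4T, FLT, DMSO and unexposed nematodes, with 95% intervals, filled where the adjusted p was under 0.01. The lowest point is unc-54 in DMSO nematodes (-2.41), and the AZT points of myo-1 and myo-2 are the highest (1.73 and 1.83).

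Whether an analogue's difference from DMSO itself changed with time was tested as an interaction. For AZT 5 of the 8 genes passed, all towards a higher value at 72h, where 29.3% of all genes passed in that direction: unc-54 by 2.04 ± 0.27 (SE, adjusted p = 1.68e-06), myo-2 by 2.14 ± 0.46 (adjusted p = 0.000306), myo-3 by 1.48, myo-1 by 1.46 and unc-15 by 1.37. Those of unc-54, unc-15 and myo-2 were kept in 12 of 12 fits with 1 library left out, that of myo-1 in 3 (1.06 to 1.63) and that of myo-3 in 1 (1.31 to 1.54). The interaction of unc-54 joined a difference from DMSO of 2.09 at 72h and one of 0.06 at 24h. For FLT 2 passed (6.17% of all genes passed upwards), unc-54 by 2.61 ± 0.27 (SE, adjusted p = 5.53e-07), whose difference was 1.87 at 72h and -0.74 at 24h, and unc-15 by 1.35 ± 0.22 (adjusted p = 0.000148). For d4T 2 passed (3.08% of all genes passed downwards), both of them regulatory light chain genes and towards a lower value at 72h: mlc-1 by -0.99 (adjusted p = 0.00107) and mlc-2 by -1.49 (adjusted p = 6.21e-05). Without d4T replicate 2 at 24h, 6 of the 8 genes passed for d4T, unc-54 upwards (0.99) and 5 downwards. The share of all genes that passed in that fit is not given here. Without this library more of all genes were called against DMSO at 24h too, so the 6 are no result about these genes alone. All of these differences contain the change of DMSO nematodes between the times.

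Ratios of counts within a library do not depend on its scaling. They are given to compare groups, not genes, since they are not per kb, and they were not tested. The ratio of myo-3 to unc-54 was 0.323 to 0.441 with AZT, 0.344 to 0.405 with d4T and 0.275 to 0.363 with FLT at 72h, against 0.678 to 0.714 with DMSO and 0.181 to 0.215 in unexposed nematodes. The DMSO libraries were thus above, and the unexposed libraries below, all libraries of the analogues. At 24h it was 0.0856 to 0.129 with AZT, 0.0949 to 0.363 with d4T and 0.231 to 0.462 with FLT, against 0.108 to 0.133 with DMSO and 0.0663 to 0.155 in unexposed nematodes. All FLT libraries lay above both controls, and so did the d4T libraries other than replicate 2 (0.351 and 0.363). The ratio of unc-15 to unc-54 was 0.834 to 0.891 with AZT, 0.723 to 0.825 with d4T and 0.729 to 0.927 with FLT at 72h, against 1.30 to 1.42 with DMSO and 0.586 to 0.692 in unexposed nematodes.

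The summed counts of myo-1 and myo-2 over those of unc-54 and myo-3, the pharyngeal to the body wall heavy chains, were 0.180 to 0.216 with AZT, 0.0846 to 0.153 with d4T and 0.149 to 0.198 with FLT at 72h. They were 0.0929 to 0.117 with DMSO and 0.0940 to 0.0976 in unexposed nematodes. AZT and FLT libraries lay above all control libraries and d4T libraries overlapped with them. At 24h the ratio was 0.0538 to 0.0548 with AZT, 0.0866 to 0.144 with d4T and 0.0991 to 0.108 with FLT, against 0.0208 to 0.0417 with DMSO and 0.0490 to 0.0760 in unexposed nematodes. There d4T and FLT lay above both controls and DMSO below all other groups. The ratio of mlc-2 to mlc-1 was 0.982 to 1.19 with AZT, 1.08 to 1.16 with d4T and 1.59 to 1.87 with FLT at 72h, against 1.82 to 2.14 with DMSO and 1.20 to 1.29 in unexposed nematodes. At 24h, by contrast, all 15 libraries lay between 1.45 and 2.33.

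**Figure D4:**
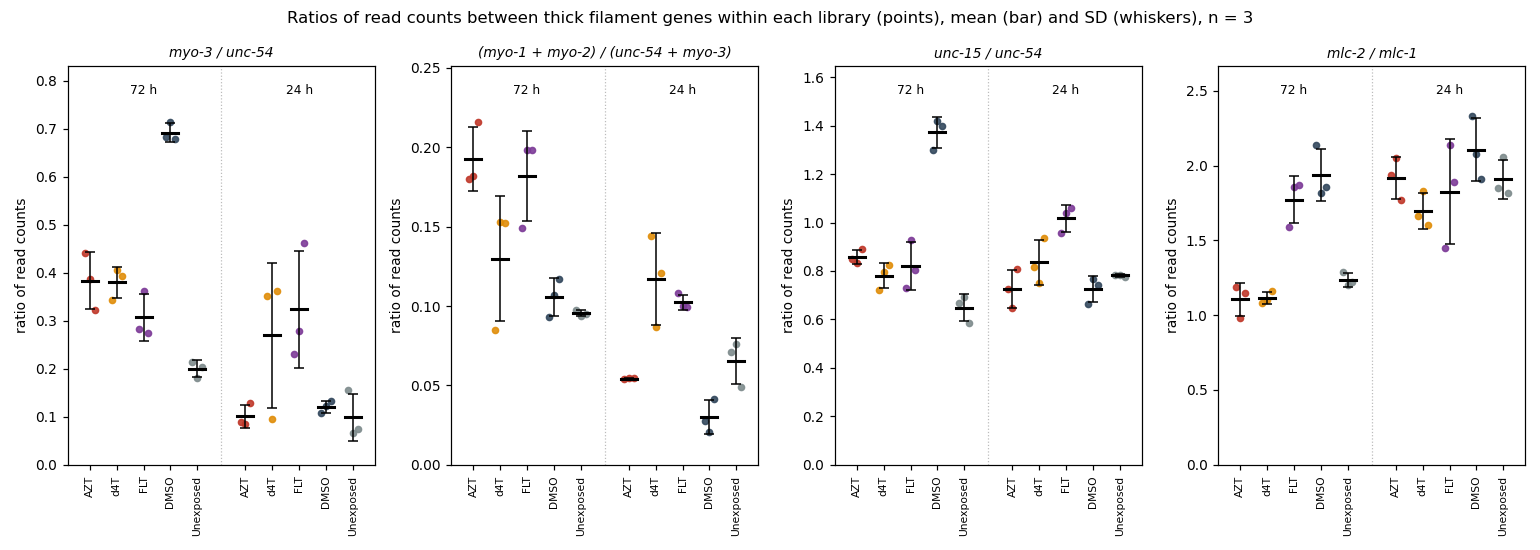
Ratio of read counts within each library for 4 pairs of quantities (myo-3 to unc-54, pharyngeal to body wall heavy chains, unc-15 to unc-54, mlc-2 to mlc-1), by exposure and time (72h, then 24h), with 1 point per library, a bar at the group mean and whiskers of 1 SD (n = 3). DMSO at 72h holds the highest ratios of myo-3 to unc-54 (0.678 to 0.714) and of unc-15 to unc-54 (1.30 to 1.42).

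Other tissues in the same animals moved with several of these results, and their part in them was not tested. At 72h the summed level of 12 genes of oocytes and the germline, none of them at 0 in any library, was 3196 to 4314 CPM with AZT, 6182 to 6997 CPM with d4T and 6900 to 11300 CPM with FLT, against 8941 to 9097 CPM with DMSO and 8040 to 10080 CPM in unexposed nematodes. With d4T some genes of the list stood above DMSO, against the sum: cpg-1 (814 against 527 CPM), gld-1 (464 against 400 CPM) and glp-1 (181 against 178 CPM). At 24h the germline sum was 9595 to 11680 CPM with AZT, 3330 to 13100 CPM with d4T (highest in replicate 2) and 1251 to 2967 CPM with FLT, against 4379 to 6827 CPM with DMSO and 5189 to 6359 CPM in unexposed nematodes. AZT at 72h, with 7 of the 8 filament genes raised, also had 695 to 852 CPM over 8 genes of the epidermis and cuticle, against 217 to 269 CPM with DMSO (bli-1 was at 0 in all 30 libraries and rol-6 in 7). Over 8 neuronal genes, none at 0, it had 410.1 to 456 CPM, against 329 to 346 CPM with DMSO. The largest part of that sum, snb-1, was not higher with AZT (225.7 against 227.4 CPM), nor was unc-119 (27.5 against 30.5 CPM). Over 8 intestinal genes, none at 0, AZT at 72h had 39000 to 55530 CPM, against 10940 to 14000 CPM with DMSO. Most of the intestinal sum came from the yolk genes vit-2, vit-5 and vit-6 in both groups. Of the 3 differences the neuronal one was the smallest, and no AZT library overlapped with DMSO in any of these sums. Of 7 sperm genes, ssp-9 was at 0 in 17 libraries, and the sum reached 11.01 to 18.1 CPM with FLT at 72h and at most 8.74 CPM elsewhere. Most of that FLT sum was 1 gene, spe-41, with a mean of 12.9 CPM of 14.1 CPM, against 1.80 CPM with DMSO. The next gene, fer-1, had 0.529 CPM with FLT at 72h and 0.560 CPM with DMSO, so the sum does not show a rise of sperm genes in general.

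The other genes of the contractile apparatus were read from lists drawn up from general knowledge, but with earlier results of these data known. The share of all genes given above is the background. Among 24 genes of the M-line, the dense body and the giant titin-like proteins, which anchor both filaments to the membrane, 22 rose with AZT at 72h, 12 with d4T and 9 with FLT, and none fell (27.2, 5.82 and 4.52% of all genes rose). Their median log2 fold changes were 1.23, 0.72 and 0.71. With AZT the perlecan gene unc-52 had 108 CPM on average against 20.7 CPM with DMSO (log2 2.39, adjusted p = 3.34e-08) and the talin gene tln-1 had 120.3 CPM against 23.6 CPM (2.35, adjusted p = 6.98e-08). With d4T the kettin gene ketn-1 (1.44, adjusted p = 1.11e-05) and unc-52 (1.55, adjusted p = 2.25e-05) led, and with FLT cpna-1, a copine-domain protein of the M-line (2.04, adjusted p = 8.35e-09), and ketn-1 (1.81, adjusted p = 7.32e-07). At 24h fewer of the list were called: 2 fell with AZT (tln-1 -1.02 and unc-112, the kindlin gene, -0.77), and 3 rose with d4T (among them the vinculin gene deb-1, 1.15, and dim-1, 0.77). With FLT 4 fell (among them the twitchin gene unc-22, -1.06, and the alpha-actinin gene atn-1, -0.60). Of all genes at 24h, 9.15% fell with AZT, 4.07% rose with d4T and 9.39% fell with FLT, so the 2 of 24 with AZT are near the share of all genes. Without d4T replicate 2, 14 of the 24 rose with d4T at 24h, where 14.7% of all genes then rose. Without d4T replicate 1 none was called, where 1.08% of all genes rose.

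Of 15 genes of muscle excitation and calcium handling, 14 rose with AZT at 72h, 6 with d4T and 6 with FLT, and none fell. Of all genes 27.2, 5.82 and 4.52% rose. The GABA receptor gene unc-49 had 11.6 CPM with AZT against 3.00 CPM with DMSO (1.96, adjusted p = 4.09e-07). The dystrophin gene dys-1 had 68.8 CPM with AZT against 20.5 CPM (1.75, adjusted p = 6.51e-07) and 47.2 CPM with d4T (1.21, adjusted p = 0.000217). The junctophilin gene jph-1 had 42.8 CPM with FLT against 7.12 CPM (2.59, adjusted p = 1.26e-06). The calcium pump gene sca-1 rose with d4T at 72h (0.94, adjusted p = 2.65e-05) and fell with FLT at 24h (-0.80, adjusted p = 0.000218). At 24h 7 of the 15 rose with d4T, led by the acetylcholine receptor subunit gene lev-1 (1.84, adjusted p = 0.000443) and unc-49 (1.06, adjusted p = 0.00199). Without d4T replicate 2 this count was 13, and without d4T replicate 1 it was 1, where 14.7 and 1.08% of all genes rose. With FLT 2 rose, lev-1 among them (1.38, adjusted p = 0.00268), and 1 fell, and with AZT 1 fell, dys-1 (-0.79, adjusted p = 0.00890). Of all genes at 24h, 4.07% rose with d4T, 5.74% rose and 9.39% fell with FLT, and 9.15% fell with AZT.

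Myosin pulls on the thin filament. Of 14 tested genes of actin, tropomyosin, the troponins and proteins that bind them, 6 rose and 1 fell with AZT at 72h (median 0.07, beside 0.36 over all genes), 1 rose and 2 fell with d4T, and 2 rose and 2 fell with FLT. Of all genes 27.2% rose and 21.6% fell with AZT, 5.82 and 5.86% with d4T, and 4.52 and 3.54% with FLT. At 24h these shares were 1.07 and 9.15% with AZT, 4.07 and 2.24% with d4T, and 5.74 and 9.39% with FLT. The troponin T gene tnt-3 rose with all 3 analogues at 72h: it had 90.6 CPM with AZT (2.35, adjusted p = 1.23e-10), 34.3 CPM with d4T (0.94, adjusted p = 8.95e-05) and 37.6 CPM with FLT (1.08, adjusted p = 2.37e-05), against 17.8 CPM with DMSO. The actin gene act-4 rose with AZT (1.24, adjusted p = 2.36e-05), the troponin T gene tnt-2 with FLT (0.89, adjusted p = 0.00150), and the troponin I gene unc-27 fell with d4T (-0.93, adjusted p = 9.29e-05). At 24h 0 of the 14 passed with AZT (8 had an unadjusted p under 0.05 by edgeR, and 2 were called by DESeq2), 1 rose with d4T (the troponin T gene mup-2, 0.94; 3 rose and 1 fell without d4T replicate 2), and with FLT the body wall troponin C gene pat-10 rose (0.85, adjusted p = 7.82e-05) and tnt-3 fell (-0.69, adjusted p = 0.00148).

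The other pharyngeal muscle genes numbered 4, and 3 of these rose with AZT at 72h and 0 with d4T or FLT (edgeR gave 3 and 2 at an unadjusted p under 0.05). Of all genes 27.2% rose with AZT, 5.82% with d4T and 4.52% with FLT. The pharyngeal troponin C gene tnc-2 had 17.5 CPM with AZT against 4.96 CPM with DMSO (1.82, adjusted p = 1.51e-05) and the pharyngeal troponin T gene tnt-4 had 15.8 CPM against 3.53 CPM (2.16, adjusted p = 6.67e-05). At 24h 2 of the 4 rose with AZT, 3 with d4T (also without d4T replicate 2) and 3 with FLT. Of all genes at that time 1.07, 4.07 and 5.74% rose. The list also holds ceh-22, the gene of a homeodomain factor of the pharynx, named here after its values were seen. With AZT at 24h it stood at -1.99, the only negative value of the 4, and did not pass (adjusted p = 0.0348). At that time tnc-2 had 4.24 CPM with AZT (1.21, adjusted p = 0.00730), 10.8 CPM with d4T (2.57, adjusted p = 8.69e-06) and 8.99 CPM with FLT (2.30, adjusted p = 2.13e-05), against 1.82 CPM with DMSO. The pharyngeal troponin I gene tni-4 had 25.1, 32.5 and 27.3 CPM with AZT, d4T and FLT, against 9.92 CPM with DMSO (1.34, 1.71 and 1.45, adjusted p = 0.000138, 6.32e-06 and 2.63e-05).

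Of 3 genes that fold myosin, the chaperone genes unc-45, hsp-90 and sti-1, none rose in any comparison with DMSO. With FLT at 24h sti-1 (-0.90, adjusted p = 0.000593) and unc-45 (-0.51, adjusted p = 0.00256) fell, and with AZT at 72h hsp-90 had 1950 CPM against 3408 CPM with DMSO (-0.81, adjusted p = 0.00267). Of 4 transcription factor genes of muscle (ceh-22 is also among the 4 pharyngeal genes), 3 rose with AZT at 72h, among them hlh-1, the MyoD homologue (2.45, adjusted p = 6.82e-05), and unc-120, the homologue of serum response factor (2.29, adjusted p = 2.29e-05). With AZT at 24h unc-120 (-1.85, adjusted p = 0.00140) and hnd-1 (-1.18, adjusted p = 0.00271) fell, and hnd-1 also fell with d4T (-1.19, adjusted p = 0.00307). Among 10 genes of non-muscle myosins, 5 rose and 4 fell with AZT at 72h (hum-4 1.92 and hum-5 1.40, adjusted p = 8.87e-07 and 1.69e-06). With d4T 4 rose and 1 fell (the heavy chain gene nmy-1 1.03, adjusted p = 0.000673, and the light chain gene mlc-4 -0.53, adjusted p = 0.00154), and with FLT 0 were called (edgeR gave 5 at an unadjusted p under 0.05). At 24h none of the 10 rose, 1 fell with AZT (hum-5, -1.07) and 3 fell with FLT (among them nmy-2, which drives cell division, -1.27, and hum-1, -0.83). Of all genes at 72h, 27.2% rose and 21.6% fell with AZT, 5.82 and 5.86% with d4T, and 4.52 and 3.54% with FLT. At 24h these shares were 1.07 and 9.15% with AZT, 4.07 and 2.24% with d4T, and 5.74 and 9.39% with FLT. The 1 of 10 that fell with AZT at 24h is thus near the share of all genes.

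Genes outside the 8 were also ordered by how closely their log2 CPM followed the mean of the 8 over the 30 libraries, as a description in which the points share groups, lanes and depth. The closest were dim-1, a muscle protein of the dense body region, at r = 0.93, alp-1, a PDZ and LIM domain protein of dense bodies, at 0.91, the tropomyosin gene lev-11 at 0.89, the M-line gene unc-96 and the GABA receptor gene unc-49 at 0.88, and dig-1, gei-15 and the troponin T gene mup-2 at 0.87. The median over all genes tested was 0.08, and 0.74 marked the 99th percentile. Within the 8 genes, 5 of the 28 pairs had r above 0.8 (median 0.46), among them myo-1 and myo-2 (0.96), unc-54 and unc-15 (0.93), and mlc-1 and mlc-3 (0.91). The lowest were myo-3 with mlc-2 (0.04), myo-2 with mlc-2 (0.10) and unc-54 with myo-3 (0.12).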

How the data were processed

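Whole nematodes were measured by RNAseq in 30 libraries, 3 for each of 10 groups, and groups were taken from the deposited sample labels. The authors trimmed the reads with Trimmomatic 0.32, aligned them with TopHat2 2.0.8 and Bowtie2 2.1.0 to WBcel235 and counted them per gene with HTSeq. The deposited values are these raw counts. Entries for reads on no gene (10.5 to 26.5% of reads per library, median 14.5%) were left out, and reads that align to more than 1 place were not counted, which bears on mlc-1 and mlc-2.

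All libraries were fitted in 1 model of 10 group means with edgeR 4.0.16 in R 4.3.3 (filterByExpr with a minimum count of 10 and total of 15, TMM scaling, robust glmQLFit and glmQLFTest, 20 residual degrees of freedom, common biological coefficient of variation 0.24). Benjamini-Hochberg adjustment covered 16048 genes, and a call was an adjusted p below the 0.01 that the study used. The study itself used DESeq. A depth of 11.3M to 30.6M counts per library (M, mega) sets the precision, and intervals are 95% intervals of the fit. Exon lengths and coordinates came from Ensembl release 115. Of 46726 gene IDs, 43623 had a symbol, and tmd-1 of the thin filament list was not matched.

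The genes and the lists were chosen with earlier results of these data known. Named genes were the 8 genes, the 8 whose log2 CPM (prior count 2) followed their mean most closely, and from each list at most 2 called genes with the smallest adjusted p in each comparison with DMSO. Results were recomputed with mlc-1 and mlc-2 summed, with each library left out in turn, against unexposed in place of DMSO nematodes, with a replicate block, in separate fits of the groups compared, by DESeq2 1.42.0, without the filter, and with scaling by library totals or relative log expression. The fits against unexposed nematodes with each library left out were added after seeing the data. With 2 libraries left in a group, the fit pools the spread over groups. Sequences were not used here.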

Additional observations from a re-analysis of the deposited data

Results flagged for a closer look

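The difference between an analogue and DMSO changed between 24h and 72h by a tested interaction for 9 pairs of gene and analogue (adjusted p under 0.01, edgeR's quasi-likelihood test). With AZT the log2 change of the difference was 2.04 for unc-54, 1.48 for myo-3, 1.37 for unc-15, 1.46 for myo-1 and 2.14 for myo-2. With d4T it was -0.99 for mlc-1 and -1.49 for mlc-2. With FLT it was 2.61 for unc-54 and 1.35 for unc-15. Of all genes tested, 29.3% passed upwards for AZT, 3.08% downwards for d4T and 6.17% upwards for FLT. With AZT the interactions of myo-3 and myo-1 passed in 1 and 3 of 12 fits with 1 library left out. Both were lost with relative log expression scaling, and that of myo-3 also without the filter and by DESeq2.

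Other differences pointed one way at 72h and the other way at 24h with no overlap of libraries at either time. The change between the times was not tested for these. The share of all genes tested that reversed in this way was not counted, so these differences are not set against a background. DMSO against unexposed nematodes gave a log2 difference of 0.65 at 72h and -0.60 at 24h for mlc-1, and of 1.30 at 72h and -0.49 at 24h for mlc-2. AZT against d4T gave 0.77 at 72h and -1.73 at 24h for myo-3, 0.88 and -0.49 for unc-15, 1.26 and -1.55 for myo-1, and 1.36 and -1.75 for myo-2. d4T against FLT gave -0.56 at 72h and 0.78 at 24h for unc-15, -0.78 and 1.33 for myo-1, and -1.004 and 1.21 for myo-2. Of these differences mlc-2 in DMSO against unexposed nematodes at 24h (adjusted p = 0.026), myo-3 at 72h (adjusted p = 0.068) and unc-15 at 24h (adjusted p = 0.013) in AZT against d4T, and unc-15, myo-1 and myo-2 at 72h (adjusted p = 0.0119, 0.0657 and 0.0242) and myo-2 at 24h (adjusted p = 0.0111) in d4T against FLT did not pass the test.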

How the results depend on the processing

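Counts of the 8 genes called are compared here with those of the fit of all libraries by edgeR. When each comparison was fitted on its own groups the count was 0 for d4T against DMSO at 24h, FLT against DMSO at 24h, AZT against d4T at 24h, d4T against FLT at 24h and d4T at 72h against 24h, 1 for DMSO against unexposed at 24h and for the d4T interaction, 2 for FLT at 72h against 24h, 5 for d4T against FLT at 72h, and 8 (5 higher, 3 lower) for d4T against DMSO at 72h. Those fits called 0 of all genes for d4T against DMSO, AZT against d4T and d4T against FLT at 24h, 3 for d4T between the times, 5.42% for FLT against DMSO at 24h, and 45.7% for d4T against DMSO at 72h. With DESeq2 it was 5 for AZT against d4T at 24h, for d4T against FLT at 72h and for the d4T interaction, 2 for FLT at 72h against 24h and 1 for AZT against FLT at 72h. With library totals it was 0 for AZT against DMSO at 24h and for FLT at 72h against 24h, 1 for DMSO against unexposed at 24h, for AZT against FLT at 72h and for d4T against FLT at 72h, and 5 for AZT against d4T at 24h. Without a filter it was 0 for AZT against DMSO at 24h, 1 for DMSO against unexposed at 24h and 2 for FLT at 72h against 24h. With relative log expression it was 1 for AZT against FLT at 72h, 2 for FLT at 72h against 24h and 3 for the AZT interaction. With unexposed nematodes as the control it was 0 for AZT at 24h, 1 for FLT at 24h and 0 for d4T at 72h, 14 of 48 differences turned, 9 of them called against neither control, and the other 5 were mlc-1 with AZT at 24h (-0.075), myo-1 with FLT at 24h (-0.0036), and at 72h mlc-2 with AZT (1.15) and d4T (0.28) and unc-54 with d4T (-0.32). Over all genes DESeq2 called 6135 for AZT against d4T at 24h, 2410 for d4T against FLT at 72h and 1952 for the d4T interaction. The edgeR fit of all libraries called 4731, 1796 and 1286. DESeq2 also called 6633 for FLT between the times and 7045 for AZT against FLT at 72h, where edgeR called 5797 and 6492. Library totals called 4988 of all genes for AZT against d4T at 24h.

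With 1 library left out the counts against DMSO ranged over 0 to 2 (AZT), 2 to 6 (d4T) and 0 to 3 (FLT) at 24h, and over 5 to 7 (AZT), 3 to 4 (d4T) and 4 to 4 (FLT) at 72h. DMSO against unexposed gave 0 to 2 at 24h and 3 to 5 at 72h. At 24h AZT against d4T gave 1 to 5, AZT against FLT 1 to 1 and d4T against FLT 1 to 5, and at 72h these gave 4 to 7, 0 to 0 and 1 to 5. Between the times unexposed nematodes gave 4 to 4, DMSO 2 to 2, AZT 4 to 4, d4T 5 to 8 and FLT 0 to 1, and the interactions gave 3 to 4 (AZT), 2 to 6 (d4T) and 2 to 2 (FLT). Against unexposed nematodes, fits added after seeing the data gave 0 to 0 (AZT), 2 to 5 (d4T) and 0 to 1 (FLT) at 24h, and 6 to 7 (AZT), 0 to 0 (d4T) and 3 to 6 (FLT) at 72h. The share of all genes called in each of these fits is not given here, so the ranges show only how far the counts depend on single libraries. No direction of a call turned when a library was left out.

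No pairing by replicate number was seen under a strict rule: in 0 of 25 pairs of compared groups did all 3 same-numbered libraries deviate together with a correlation over 0.1. Single same-numbered libraries reached 0.555 (replicate 3 of d4T and FLT at 24h), so this rule cannot exclude pairing. A replicate block gave 0 calls for AZT against DMSO at 24h in place of 1, and 21 of the 22 counts stayed within 1.5 times. The block also ended the calls of myo-1 with d4T against DMSO at 72h and with d4T between the times. Library totals shifted the median log2 fold change of all genes by 0.31 (AZT) and 0.27 (d4T) against DMSO at 72h. The cause of these changes was not tested.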
